A study of Homo sapiens with 12 samples.

Results

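BON-1 is an established human cell line from a pancreatic neuroendocrine tumour, and its expression profile in culture on its own was read from 3 RNA sequencing libraries of the 12 in the series. These 3 were chosen by their titles, which name BON-1 with no second cell type. The other 9 libraries were labelled as BON-1 co-cultured with CAFs, a short form commonly used for cancer-associated fibroblasts, in proportions of 10:2, 10:4 and 10:6 with 3 libraries each. They served only to recover gene lengths, and no level from them is given here. All libraries were labelled as polyA RNA. The labels give no genotype, passage, medium or time in culture for BON-1 alone, and name 1 line, so nothing here speaks for other tumours. The labels describe a flow cytometry sort for every sample, and do not say whether cells grown without CAFs also went through it. They do not say that the 3 libraries came from separate cultures, so the spread between them may be technical.

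Neuroendocrine cells store peptide hormones in dense-core granules, where granins, a family of acidic secreted proteins, aggregate with the hormone. Precursors are cut by prohormone convertases, trimmed by carboxypeptidase E and often amidated before calcium entry and SNARE proteins release them. Chromogranin A and synaptophysin are the usual tissue markers of neuroendocrine tumours, and somatostatin receptors are the target of their imaging and of somatostatin analogue treatment.

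The table holds FPKM, fragments per kilobase of gene scaled to the assigned reads of a library, so that levels can be set side by side between genes of different length. Values for single libraries are given in the order of libraries 1, 2 and 3, and means are given ± SD over these 3 libraries (n = 3). The libraries held 16757991, 21882537 and 12918760 assigned reads. A gene was called detected at a mean of at least 1 FPKM, moderate at 10 and high at 100. Of 54261 genes in the table, 12278 were detected. Among 19308 protein-coding genes 10500 were detected (54.38%), 5137 reached 10 FPKM (26.61%) and 717 reached 100 FPKM (3.71%), and the median was 1.57 FPKM. Of the 19308 protein-coding genes 3280 were listed at 0 in all 3 libraries. These shares and counts are the background for the gene lists that follow. No pair of libraries was a repeat deposit: counts differed by 1.67 to 2.08 times the counting noise (chi-square per degree of freedom), and log2 FPKM of detected genes correlated across genes at Pearson's r of 0.99358 to 0.99474.

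The label was checked against marker genes. All 4 neuroendocrine and epithelial markers (CHGA, SCG2, CHGB and EPCAM) were high, and their summed level was 2605, 2655 and 2586 FPKM. EPCAM, an epithelial adhesion protein, had 300.3, 306 and 303 FPKM. Among the fibroblast markers 4 of 10 were detected (COL1A1, COL1A2, COL3A1 and PDGFRA), with a summed level of 17.3 to 18.8 FPKM. COL1A1 averaged 9.22 ± 0.148 FPKM, COL1A2 4.07 ± 0.535, PDGFRA 2.44 ± 0.148 and COL3A1 1.59 ± 0.113 FPKM. The other 6 were below 1 FPKM, with THY1 at 0.582, PDGFRB at 0.180, LUM at 0.126, DCN at 0.0293, FAP at 0.00936 and PDPN at 0.00542 FPKM. Of 5 leukocyte markers only LYZ was detected, and their sum was 2.95, 1.65 and 1.93 FPKM with CD3E listed at 0. Library 1 was the highest for the other 4 of them (LYZ, CD14, PTPRC and CD163), and PTPRC had 11, 1 and 0 reads. Of 3 endothelial markers only CDH5, VE-cadherin, was detected (28.8 ± 0.604 FPKM), while PECAM1 and VWF averaged 0.0628 and 0.121 FPKM. Of 4 exocrine pancreas markers only PRSS1, a trypsinogen, was detected. Every library thus carried the neuroendocrine and epithelial markers, and PRSS1 is taken up with PRSS2 further on.

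**Figure D1:**
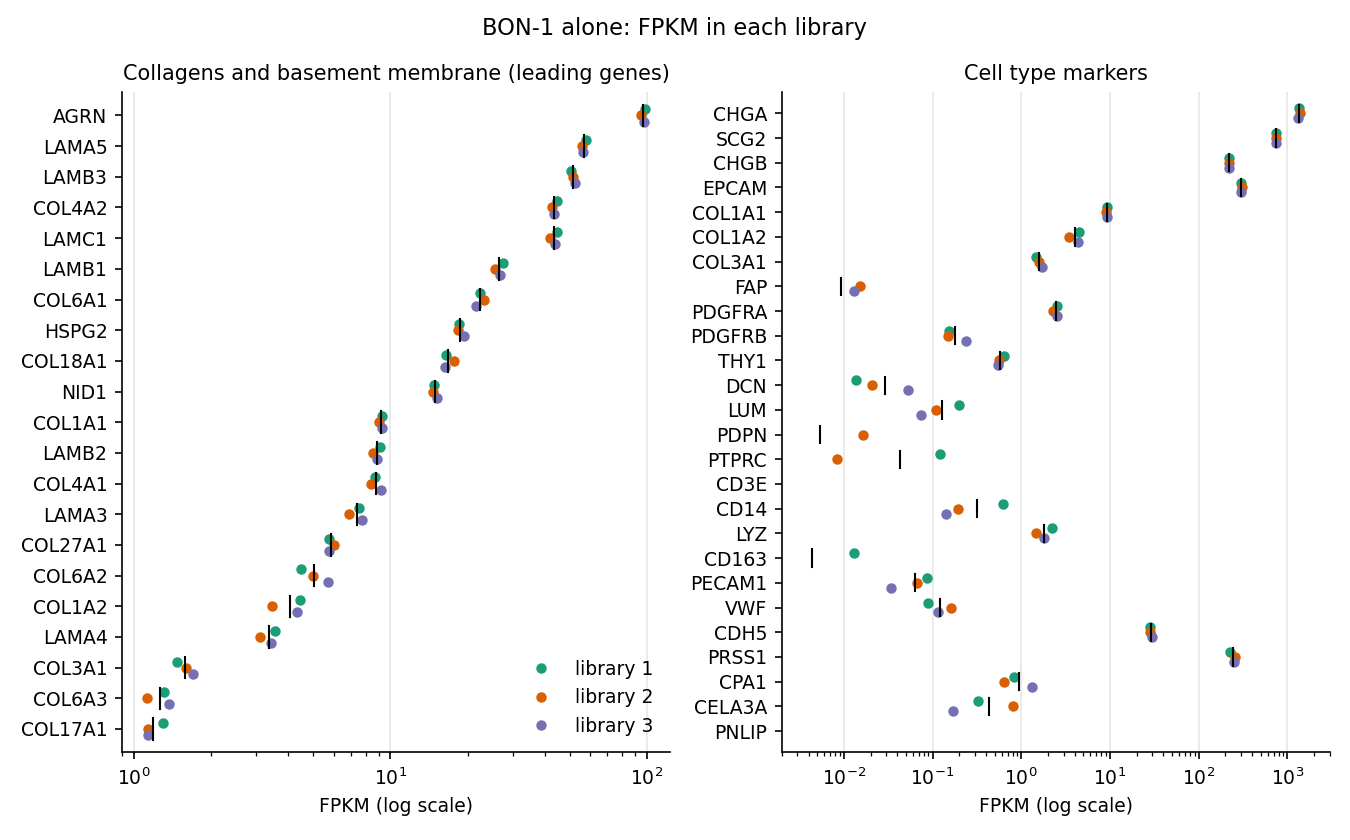
FPKM on a log scale in each of the 3 BON-1 alone libraries (points) with the mean (black tick), for leading detected collagen and basement membrane genes (left) and for the cell type markers (right). A library listed at 0 is not drawn, and CD3E and PNLIP, at 0 in all 3, show no point. CHGA, SCG2, CHGB and EPCAM lie above 200 FPKM, as does the exocrine marker PRSS1, and FAP, DCN and PECAM1 lie below 0.1 FPKM.

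Promoter sequences are shown for 4 genes that carry the cyclic AMP response element, the palindrome TGACGTCA bound by CREB family factors, in the 150 bases before the gene start. They are CHGA and VGF, which encode abundant granule proteins, PCSK1, a convertase of the granule, and CGA, a hormone gene that varied widely between libraries. The letters come from RefSeq on GRCh38.p14 and run 5′ to 3′ on the gene's own strand, with the element in capitals. The windows are chr14:92923000-92923149 on the plus strand for CHGA, chr7:101165570-101165719 on the minus strand for VGF, chr5:96433249-96433398 on the minus strand for PCSK1 (the first of 2 windows listed for it) and chr6:87095107-87095256 on the minus strand for CGA. The start is the one RefSeq's promoter table uses, which for CHGA and VGF lies inside the annotated range of the gene.
CHGA: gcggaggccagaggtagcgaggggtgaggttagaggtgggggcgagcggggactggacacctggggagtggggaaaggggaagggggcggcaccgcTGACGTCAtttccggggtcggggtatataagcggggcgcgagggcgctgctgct
VGF: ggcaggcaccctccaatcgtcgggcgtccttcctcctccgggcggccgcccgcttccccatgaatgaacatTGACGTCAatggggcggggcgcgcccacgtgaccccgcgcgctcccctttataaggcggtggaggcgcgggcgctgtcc
PCSK1: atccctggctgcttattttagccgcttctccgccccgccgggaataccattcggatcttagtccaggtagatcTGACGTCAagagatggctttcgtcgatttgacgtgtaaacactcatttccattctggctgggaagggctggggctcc
CGA: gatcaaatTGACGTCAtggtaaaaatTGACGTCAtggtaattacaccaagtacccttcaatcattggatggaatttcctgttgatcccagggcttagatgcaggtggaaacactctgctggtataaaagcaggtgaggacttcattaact
The element starts 54 bases before the gene start in CHGA, 79 in VGF and 77 in PCSK1, and it stands at 142 and at 124 bases before it in CGA. It reads the same on both strands, so 1 search covers both. It occurs in 3 of the 19 granule and processing genes with a window (CHGA, VGF and PCSK1, of 23 genes in all). Of all 35116 windows of this length 492 hold it (1.401%). Of 59 hormone genes with a window 5 hold the element, which are CGA, SST, CARTPT, CGB1 and CGB2, and CGA was shown for its spread. A gene was counted if any of its windows held the element, so the counts of genes and the share of windows are unlike measures. A match describes the letters and is not evidence of binding in these cells.

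Granins were among the most abundant messages of BON-1. Of 12 granin and granule matrix genes 11 were detected (91.7%, against 54.4% of protein-coding genes). Of the 12, 9 reached 10 FPKM and 5 reached 100 FPKM, with a median of 52.5 FPKM. CHGA, which encodes chromogranin A (Entrez gene 1113, chromosome 14 from 92922664 to 92935285), had 1344, 1374 and 1322 FPKM and ranked 54 of all genes. SCG2, which encodes secretogranin II (Entrez gene 7857, chromosome 2 from 223596940 to 223602361), had 743, 753 and 744 FPKM and ranked 97. The libraries lay close together for both, with coefficients of variation of 1.93% and 0.717%. VGF, a granin-like precursor of several neuropeptides, had 417, 440.3 and 421 FPKM. CHGB, which encodes chromogranin B, had 217, 222 and 217 FPKM. The order CHGA, SCG2, VGF and CHGB held in each library, and no value of one gene overlapped that of the next. SCG3, which binds chromogranin A to the granule membrane, averaged 25.7 ± 1.43 FPKM. The granule membrane phosphatase-like proteins PTPRN and PTPRN2 averaged 10.7 ± 0.180 and 8.21 ± 0.205 FPKM. Clusterin (CLU), a secreted chaperone, averaged 29.8 ± 0.422 FPKM. SCG5, the 7B2 chaperone that PCSK2 needs for its maturation, was the member below 1 FPKM, at 0.0720, 0.184 and 0.311 FPKM.

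The processing enzymes were led by CPE, carboxypeptidase E, with 124, 123 and 121 FPKM. Of 14 processing genes 10 were detected (71.4%, against 54.4% of protein-coding genes), 8 reached 10 FPKM and CPE alone reached 100 FPKM. PCSK1N, the inhibitor proSAAS of prohormone convertase 1, had 72.6, 78.0 and 75 FPKM, and its target PCSK1 had 14, 15 and 15.1 FPKM. In every library the inhibitor's level stood above that of the enzyme. PCSK2, the other convertase of dense-core granules, was listed at 0, 0.0191 and 0 FPKM, from 2 reads in library 2 alone. PAM, which amidates peptide ends, had 74.9, 73.4 and 76.7 FPKM. FURIN, the general convertase of the Golgi, averaged 42.0 ± 0.398 FPKM, and its relatives PCSK6 and PCSK7 averaged 22.4 ± 0.978 and 10.9 ± 0.518 FPKM. QPCT, which forms the pyroglutamate end of peptides such as neurotensin, averaged 17.2 ± 0.724 FPKM.

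**Figure D2:**
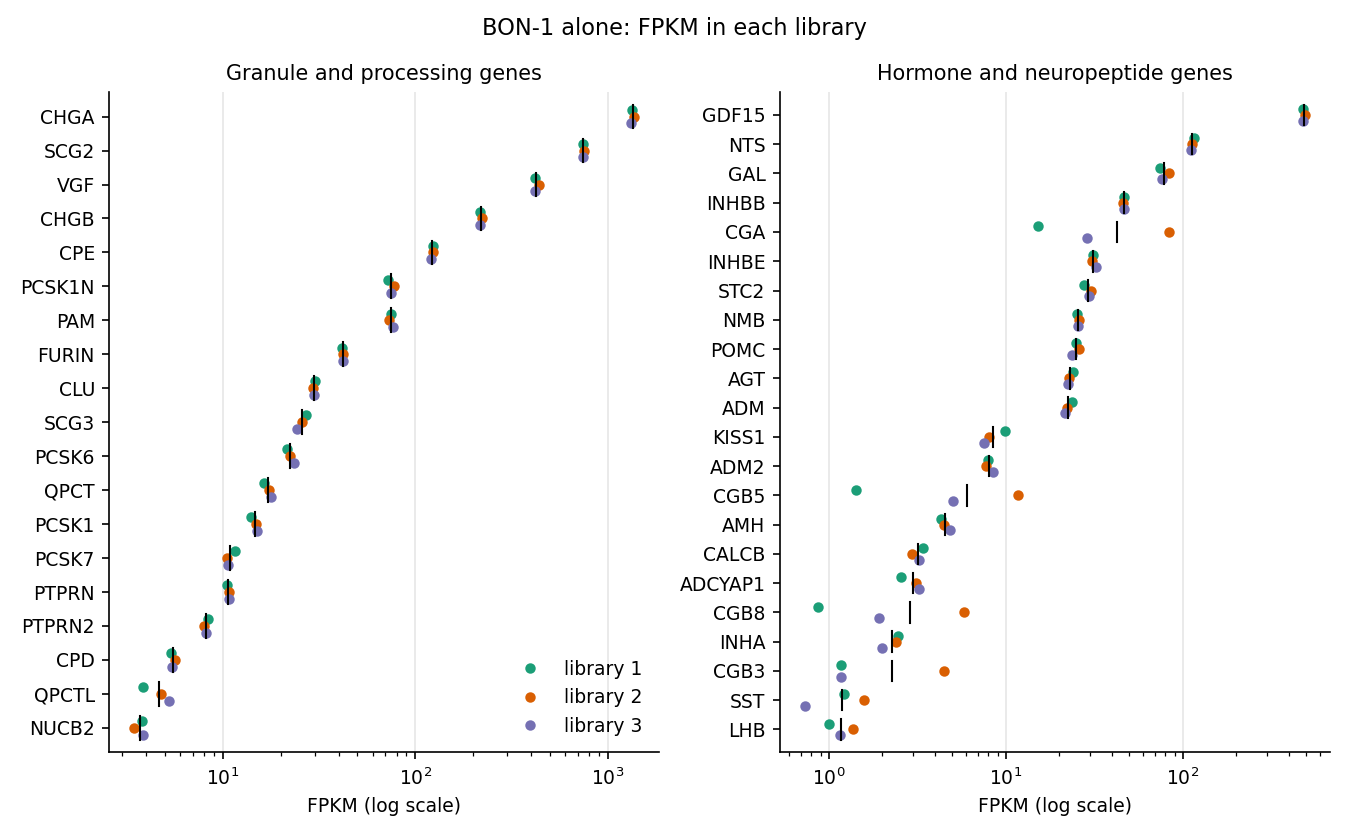
FPKM on a log scale in each of the 3 BON-1 alone libraries (points) with the mean (black tick), for detected granule and processing genes (left) and detected hormone and neuropeptide genes (right). Most granule genes lie in tight groups of 3 points, from CHGA at 1347 FPKM down to NUCB2 at 3.72 FPKM, and CGA and the CGB genes are spread the most.

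Hormone messages were few and of uneven level. Of 71 peptide hormone and neuropeptide genes 22 were detected (31.0%, against 54.4% of protein-coding genes), 11 reached 10 FPKM and 2 reached 100 FPKM. In all 3 libraries 24 were listed at 0, against 3280 of 19308 protein-coding genes. The highest was GDF15, a stress-induced hormone that acts on the hindbrain, with 478, 489.7 and 480.1 FPKM. NTS, the precursor of neurotensin and neuromedin N, had 117, 112 and 111 FPKM. GAL, which encodes galanin, had 74.8, 83.3 and 76.3 FPKM. These 3 were the most abundant members in libraries 1 and 3, while in library 2 CGA, described below, stood just above GAL. Inhibin beta chains were also present, with INHBB at 46.4 ± 0.282 FPKM and INHBE at 31.3 ± 0.790 FPKM, while INHBA averaged 0.104 FPKM. STC2, a secreted glycoprotein of calcium and phosphate handling, averaged 29.2 ± 1.31 FPKM. NMB, which encodes neuromedin B, averaged 25.6 ± 0.472 FPKM, and POMC, the precursor of corticotropin and melanocyte-stimulating hormones, averaged 24.9 ± 1.16 FPKM. AGT, the angiotensin precursor, and ADM, adrenomedullin, averaged 23.1 ± 0.809 and 22.4 ± 1.04 FPKM. INHBE, STC2, NMB, POMC, AGT and ADM thus lay in a narrow band below INHBB. KISS1, which encodes kisspeptin, had 9.95, 8.06 and 7.59 FPKM.

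The classical islet and gut hormones were low or listed at 0. Insulin (INS), glucagon (GCG), islet amyloid polypeptide (IAPP) and gastrin (GAST) were at 0 in all 3 libraries, as were NPY, TAC1, GRP and PENK. For INS, 3 reads over the 3 libraries would give 0.0904 FPKM, so a level under that remains possible with 0 reads at this depth. This limit covers counting error only. SST, somatostatin, was the islet hormone that reached 1 FPKM, with 1.23, 1.59 and 0.735 FPKM. PPY, PYY, CCK, GIP and VIP averaged 0.0248, 0.122, 0.482, 0.499 and 0.198 FPKM.

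Glycoprotein hormone genes set the libraries apart more than any other detected list genes. CGA, the alpha chain that chorionic gonadotropin shares with the pituitary glycoprotein hormones (Entrez gene 1081, chromosome 6 from 87085498 to 87095106), had 15.2, 83.8 and 28.7 FPKM from 215, 1547 and 313 reads. Library 2 was the highest and library 1 the lowest, a ratio of 5.51. CGB5, a chorionic gonadotropin beta chain, had 1.42, 11.7 and 5.01 FPKM from 21, 226 and 57 reads, a ratio of 8.24 in the same order. CGB8 had 0.875, 5.82 and 1.92 FPKM and CGB3 had 1.17, 4.48 and 1.18 FPKM, and library 2 was again the highest for both. Without library 2 the means were 22 FPKM for CGA, 3.22 for CGB5, 1.40 for CGB8 and 1.17 for CGB3, against 42.6, 6.06, 2.87 and 2.27 FPKM over all 3 libraries. The CGB genes are near-identical copies, and the counting could move reads between them, so their single values are uncertain. The pituitary beta chains FSHB and TSHB were listed at 0, and LHB, which is closely related to the CGB genes, averaged 1.18 ± 0.190 FPKM. Library 2 was also the deepest library, and the part of depth in these differences was not tested. CHGA and SCG2 of library 2 lay close to the other libraries, as their coefficients of variation above show.

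Other secreted products were led by TFF3, AGR2, CST3 and TFF1. Of 35 genes in that list 19 were detected (54.3%, against 54.4% of protein-coding genes) and 4 reached 100 FPKM. TFF3, a trefoil peptide of mucus-secreting epithelium, had 336, 346 and 349 FPKM, and TFF1, another trefoil peptide, had 147, 159 and 154 FPKM. AGR2, a disulphide isomerase needed for mucin folding, had 342, 344 and 341 FPKM. CST3, cystatin C, averaged 166 ± 3.19 FPKM. The mucins themselves were low, with MUC13 at 3.86, MUC1 at 2.44 and MUC2 at 0.0127 FPKM. TTR, a carrier of thyroid hormone and retinol that islets also make, averaged 6.38 ± 0.953 FPKM. AMBP, the precursor of alpha-1-microglobulin and bikunin, was outside the lists and was singled out after its values were seen. It had 724, 715 and 712 FPKM and ranked 103.

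The amine genes were uneven along the pathway. BON-1 is known as a serotonin-producing line, and serotonin is made by a tryptophan hydroxylase followed by aromatic amino acid decarboxylase. DDC, the decarboxylase, had 36.2, 36.6 and 36.2 FPKM. TPH1, the hydroxylase of gut endocrine cells, was listed at 0, 0.0252 and 0.0853 FPKM, and TPH2, that of neurons, at 0.174, 0.193 and 0.0753 FPKM. Enzymes that make or regenerate the tetrahydrobiopterin cofactor were detected, with SPR at 86.7 ± 2.03, QDPR at 28.0 ± 1.21, PTS at 19.2 ± 0.132 and GCH1 at 7.33 ± 0.352 FPKM. The vesicular amine transporters SLC18A1 and SLC18A2 averaged 3.16 ± 0.195 and 0.562 ± 0.0477 FPKM, and the serotonin reuptake transporter SLC6A4 averaged 0.00301 FPKM. TH, the first enzyme of catecholamine synthesis, averaged 0.108 FPKM. In all 10 of 21 amine genes were detected (47.6%, against 54.4% of protein-coding genes).

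Release machinery was broadly present. Of 59 regulated exocytosis genes 43 were detected (72.9%, against 54.4% of protein-coding genes) and 23 reached 10 FPKM, with a median of 5.51 FPKM. VAMP8, a vesicle SNARE of secretory epithelia, had 177, 187 and 184 FPKM. SYP, synaptophysin, had 60.8, 62.9 and 59.8 FPKM. Both were high or moderate in every library with little spread. NAPA, which takes SNARE complexes apart with NSF, averaged 104 ± 4.01 FPKM. The membrane SNAREs STX1A and SNAP25 averaged 27.2 ± 0.408 and 8.60 ± 1.2 FPKM, and VAMP2, their usual vesicle partner, averaged 12.7 ± 0.292 FPKM. STXBP2, a Munc18 protein, averaged 37.1 ± 1.80 FPKM. Among synaptotagmins, SYT7, a calcium sensor of granule release, averaged 23.8 ± 0.447 FPKM and SYT13 25.5 ± 1.34 FPKM, while SYT9 and SYT10 were listed at 0. Complexins CPLX1 and CPLX2 averaged 24.7 ± 0.225 and 19.6 ± 0.857 FPKM, and SV2A, a vesicle glycoprotein, averaged 21.9 ± 0.575 FPKM.

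Ion channels were sparser, with 20 of 47 detected (42.6%, against 54.4% of protein-coding genes). Of the 47, 6 reached 10 FPKM and none reached 100 FPKM. CACNA1H, a T-type calcium channel, had 69.2, 70.9 and 68.2 FPKM. The L-type channel genes CACNA1C and CACNA1D averaged 1.79 and 0.768 FPKM. PIEZO1, a mechanically gated channel, averaged 48.9 ± 0.680 FPKM, and KCNH2, the hERG potassium channel, averaged 32.8 ± 0.770 FPKM. KCNJ11 and ABCC8, the pore and the sulphonylurea receptor of the beta cell KATP channel, averaged 19.9 ± 1.36 and 6.24 ± 0.448 FPKM.

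Receptors for hormones and transmitters were mostly low. Of 101 members 34 were detected (33.7%, against 54.4% of protein-coding genes), 9 reached 10 FPKM and 1 reached 100 FPKM. Listed at 0 were 27, against 3280 of 19308 protein-coding genes. Among the somatostatin receptors SSTR5 had 32.7, 34.8 and 33.6 FPKM. SSTR1 had 7.38, 7.42 and 7.67 FPKM, and SSTR2, a subtype bound by octreotide and by clinical imaging tracers, had 7.47, 6.99 and 6.33 FPKM. SSTR5 was above the other 4 in every library, SSTR1 and SSTR2 differed by less than 1 FPKM in their means, SSTR3 averaged 0.374 FPKM and SSTR4 was listed at 0. The highest member was the adhesion receptor ADGRG1 with 128, 125 and 125 FPKM. RAMP1, a partner of the calcitonin receptor family, had 92.0, 92.3 and 93.2 FPKM, while its partners CALCRL and CALCR averaged 0.192 and 0.0124 FPKM. DRD2, the dopamine D2 receptor, had 40.0, 39.1 and 39.8 FPKM. ADGRG1, RAMP1 and DRD2 were the 3 highest of the list in each library. SORT1, a sorting receptor that also binds neurotensin, averaged 29.4 ± 0.462 FPKM, and NTSR1, the neurotensin receptor of high affinity, averaged 7.26 ± 0.515 FPKM. ADORA2A, ADRA2C and CHRNB2, receptors for adenosine, noradrenaline and acetylcholine, averaged 26.7 ± 1.21, 20.6 ± 1.08 and 26.3 ± 0.759 FPKM. The incretin and glucagon receptors GLP1R and GCGR were listed at 0, and GIPR averaged 1.99 ± 0.354 FPKM.

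Growth factor and cytokine receptors were more often present, with 65 of 102 detected (63.7%, against 54.4% of protein-coding genes). Of the 102, 31 reached 10 FPKM. LRP5, a WNT co-receptor, had 118, 114 and 117 FPKM. TNFRSF12A, the receptor of TWEAK, and LTBR, the lymphotoxin beta receptor, averaged 90.1 ± 1.46 and 79.2 ± 1.97 FPKM. EPHA2, an ephrin receptor, averaged 63.8 ± 1.46 FPKM. FGFR4 had 63.3, 63.1 and 63.4 FPKM and FGFR1 32.2, 33.8 and 33.4 FPKM, against means of 11.1 FPKM for FGFR3 and 1.39 FPKM for FGFR2. The order of these 4 fibroblast growth factor receptors was the same in each library. MST1R, the receptor of macrophage-stimulating protein, averaged 33.9 ± 1.22 FPKM and its relative MET 3.41 ± 0.227 FPKM. ERBB3 averaged 22.1 ± 0.889 FPKM, EGFR 3.31 ± 0.216 FPKM and ERBB2 2.94 ± 0.129 FPKM. TGFBR2, the type II receptor of TGF-beta, averaged 28.7 ± 0.982 FPKM, while TGFBR1, its type I partner, averaged 0.414 ± 0.111 FPKM. IGF1R and INSR, the receptors for insulin-like growth factors and insulin, averaged 12.8 ± 0.838 and 2.15 ± 0.122 FPKM, and the VEGF receptor KDR averaged 10.9 ± 0.460 FPKM.

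Of 43 nuclear receptors 25 were detected (58.1%, against 54.4% of protein-coding genes) and 9 reached 10 FPKM. NR2F1 (COUP-TFI) had 119.7, 118 and 119 FPKM and its relative NR2F6 89.6, 91.0 and 91.2 FPKM. NR0B2 (SHP), a repressor of bile acid signalling, averaged 67.3 ± 6.87 FPKM, and ESRRA, a regulator of mitochondrial genes, averaged 42.9 ± 0.942 FPKM. The oestrogen and progesterone receptors ESR1 and PGR were listed at 0.

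**Figure D3:**
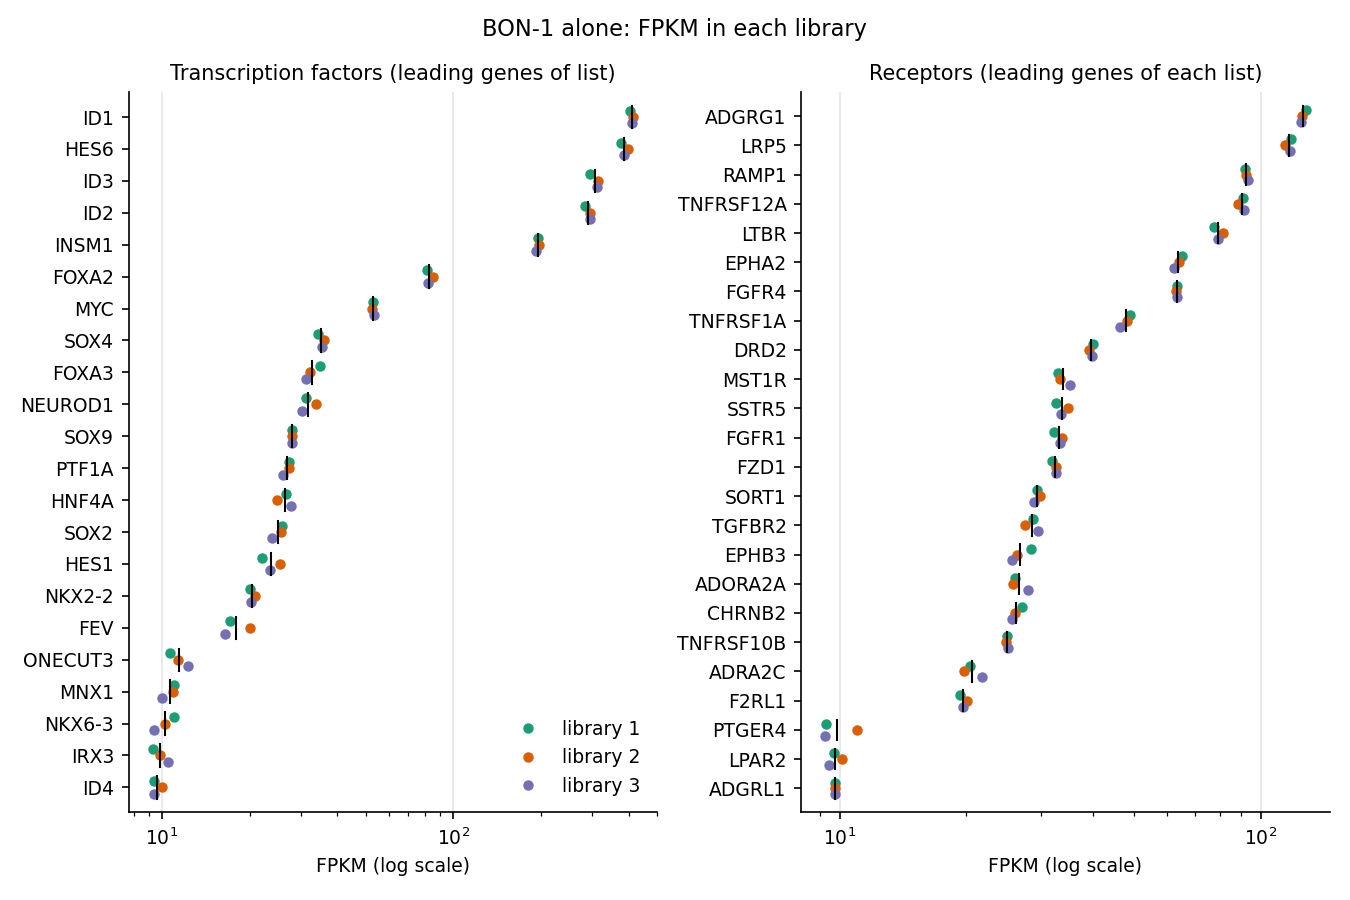
FPKM on a log scale in each of the 3 BON-1 alone libraries (points) with the mean (black tick), for leading transcription factors of their list (left) and leading genes of the membrane receptor lists (right). ID1, HES6, ID3, ID2 and INSM1 lie above 100 FPKM, as do ADGRG1 and LRP5 among the receptors.

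Ligands that the line itself made were led by MIF, a cytokine of macrophages and many tumours, with 1095, 1146 and 1102 FPKM. Of 87 growth factor and cytokine genes 41 were detected (47.1%, against 54.4% of protein-coding genes), 20 reached 10 FPKM and 3 reached 100 FPKM. IGF2, an insulin-like growth factor that binds IGF1R, had 831, 802 and 832 FPKM. The readthrough gene INS-IGF2 overlaps it and was listed at 715, 689.8 and 717 FPKM, so these values cannot be told apart as separate messages. MDK, midkine, a heparin-binding growth factor, had 510.0, 523 and 506 FPKM. BMP7 and TGFB3, of the TGF-beta superfamily, averaged 97.9 ± 1.82 and 93.0 ± 2.61 FPKM, and TGFB1 averaged 32.0 ± 1.66 FPKM. Notch ligands were detected as a group of 5, with DLL3 at 53.9 ± 2.42, DLL4 at 53.5 ± 2.12, JAG1 at 53.3 ± 1.54, JAG2 at 32.5 ± 1.09 and DLL1 at 15.1 ± 0.418 FPKM. IHH, Indian hedgehog, averaged 48.1 ± 0.263 FPKM, and VEGFA averaged 23.7 ± 1.38 FPKM. CXCL1, a neutrophil chemokine, averaged 38.3 ± 1.47 FPKM, while IL6, HGF and IGF1 averaged 0.0209, 0 and 0 FPKM. NRTN, neurturin, had 8.64, 7.23 and 12.1 FPKM, a ratio of 1.68 between its highest and lowest library.

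The list of islet and endocrine transcription factors takes in broader ones as well, such as MYC and REST. Of its 80 members 50 were detected (62.5%, against 54.4% of protein-coding genes), and 22 reached 10 FPKM. INSM1, a zinc finger factor of neuroendocrine cells, had 195, 198 and 193 FPKM. HES6, a helix-loop-helix factor that opposes HES1, had 378, 397 and 385 FPKM, while HES1, the Notch effector, averaged 23.6 ± 1.67 FPKM. INSM1 and HES6 were above 100 FPKM in each library. The list also holds the inhibitors of differentiation, which were among its highest members, with ID1 at 410.1 ± 5.45, ID3 at 307 ± 9.87 and ID2 at 291 ± 6.85 FPKM. These proteins bind helix-loop-helix factors and keep them from DNA.

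Foregut factors accompanied them. FOXA2, a pioneer factor of endoderm, had 81.0, 84.9 and 82.0 FPKM, and FOXA3 and HNF4A averaged 32.7 ± 1.78 and 26.4 ± 1.5 FPKM. NEUROD1, a factor of endocrine maturation, had 31.2, 33.9 and 30.3 FPKM, and NKX2-2, needed for islet cell fates, averaged 20.4 ± 0.416 FPKM. FEV, the ETS factor of serotonin neurons, averaged 17.9 ± 1.91 FPKM. PTF1A, an acinar and early pancreatic factor, averaged 26.8 ± 0.761 FPKM, SOX9 27.9 ± 0.0947 FPKM and SOX2 25.1 ± 1.08 FPKM.
PDX1, the factor of the pancreatic bud and of beta cells, had 1.89, 1.58 and 1.57 FPKM. Several other islet lineage factors were lower still, with MAFA at 0.0217, PAX6 at 0.00874 and ISL1 at 0.00519 FPKM, and NEUROG3 and NKX6-1 listed at 0. REST, which represses neuronal genes in other cells, had 0.152, 0.0921 and 0.146 FPKM. CDX2, the intestinal homeobox factor, averaged 7.49 ± 0.355 FPKM.

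MEN1, DAXX and ATRX are the genes most often mutated in pancreatic neuroendocrine tumours. Of 50 tumour suppressor and driver genes 35 were detected (70%, against 54.4% of protein-coding genes). MEN1, which encodes menin, had 15, 15.3 and 15.5 FPKM. DAXX had 11, 10.8 and 11.3 FPKM, and ATRX, its chromatin partner, had 0.277, 0.187 and 0.193 FPKM. The first pair was moderate in every library, and ATRX was below 1 FPKM in each. TSC2, which restrains mTOR signalling, averaged 17.8 ± 0.291 FPKM. CDK4, the cyclin D kinase, had 159, 162 and 154 FPKM, its partner CCND1 averaged 63.4 ± 1.49 FPKM, and RB1, their target, averaged 1.58 ± 0.204 FPKM. CDKN2A and CDKN2B, which encode inhibitors of CDK4, were listed at 0.138, 0 and 0.0596 FPKM and at 0.0449, 0.0229 and 0.0777 FPKM. MGMT, which repairs alkylated guanine, averaged 0.00566 FPKM. CTNNB1, beta-catenin, averaged 112 ± 1.17 FPKM, and MYC averaged 53.0 ± 0.511 FPKM. FPKM shows message level and no mutation status.

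Every one of the 30 proliferation genes was detected (100%, against 54.4% of protein-coding genes). Of the 30, 27 reached 10 FPKM and 8 reached 100 FPKM, with a median of 64.4 FPKM. UBE2C, a ubiquitin enzyme of mitosis, had 263, 271 and 269 FPKM. MCM7, of the replicative helicase, averaged 195 ± 4.27 FPKM and PCNA, the polymerase clamp, 189.8 ± 1.62 FPKM. MKI67, which encodes the Ki-67 antigen used for tumour grading, had 10.8, 9.51 and 9.84 FPKM.

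At the top of the ranking stood mitochondrial and ribosomal protein genes. Of the 30 genes with the highest mean, 11 were of the mitochondrial genome, 11 encoded ribosomal proteins (RACK1, a scaffold bound to the ribosome, among them) and 8 were others: GAPDH, FTL, ACTG1, S100A6, ACTB, S100A4, KRT8 and EEF1A1. These 30 took 22.4% of the summed FPKM, with an SD of 0.0507 percentage points over the 3 libraries. The mitochondrial genome, 37 genes, took 13.7% of the sum and 5.81% of the reads, and 89 cytosolic ribosomal protein genes took 16.9% and 8.14%. Mitochondrially encoded COX1 was the highest gene of all with 11359, 11191 and 11469 FPKM. COX2 followed with 9056, 9254 and 9094 FPKM. The mitochondrial genes ND4L and ND4, and ATP8 and ATP6, overlap on the genome, and whether the counting could split them is not given in the sources used here. FTL, the ferritin light chain, had 4946, 5118 and 4998 FPKM, and the ferritin heavy chain FTH1 averaged 1669.5 ± 29 FPKM.

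Glycolysis genes differed by isoform. Of 55 genes 42 were detected (76.4%, against 54.4% of protein-coding genes) and 14 reached 100 FPKM, with a median of 17.7 FPKM. GAPDH had 6534, 6427 and 6424 FPKM, ENO1 averaged 1421 ± 8.63, PKM 1129.5 ± 5.78, TPI1 947 ± 12.9 and ALDOA 931 ± 2.87 FPKM. LDHA, the lactate dehydrogenase subunit that favours lactate formation, had 290.2, 298 and 292 FPKM. LDHB, its counterpart, had 3.57, 2.59 and 3.37 FPKM. For glucose entry, the transporter SLC2A1 had 73.9, 74.6 and 76.3 FPKM, whereas SLC2A2, that of beta cells and liver, was listed at 0. Hexokinases HK1 and HK2 averaged 69.4 ± 1.12 and 22.9 ± 0.852 FPKM. The gluconeogenic genes G6PC and PCK1 were listed at 0, while mitochondrial PCK2 averaged 95 ± 2.74 FPKM. The pentose phosphate genes TALDO1 and TKT averaged 227 ± 8.42 and 224 ± 0.881 FPKM.

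All 27 citric acid cycle genes were detected (100%, against 54.4% of protein-coding genes) and 21 reached 10 FPKM, with a median of 50.5 FPKM. IDH2, a mitochondrial isocitrate dehydrogenase, had 211, 210.3 and 202 FPKM and MDH2, malate dehydrogenase, averaged 156 ± 2.14 FPKM. Of 40 sterol and fatty acid synthesis genes 38 were detected (95%, against 54.4% of protein-coding genes). SCD, stearoyl-CoA desaturase, had 191, 184 and 186 FPKM, and FASN, fatty acid synthase, averaged 119 ± 1.68 FPKM. Amino acid metabolism had 41 of 48 genes detected (85.4%, against 54.4% of protein-coding genes) and 14 at 100 FPKM or more. SLC7A5 and SLC3A2, the 2 chains of the large neutral amino acid transporter that also carries tryptophan, had 450.4, 450.4 and 454 FPKM and 339, 329 and 328 FPKM. SLC1A5, a glutamine transporter, averaged 414 ± 2.48 FPKM. The serine synthesis genes PHGDH, PSAT1 and PSPH averaged 222 ± 2.42, 110.5 ± 1.57 and 21.2 ± 0.670 FPKM, and ASNS, asparagine synthetase, averaged 116 ± 0.306 FPKM.

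**Figure D4:**
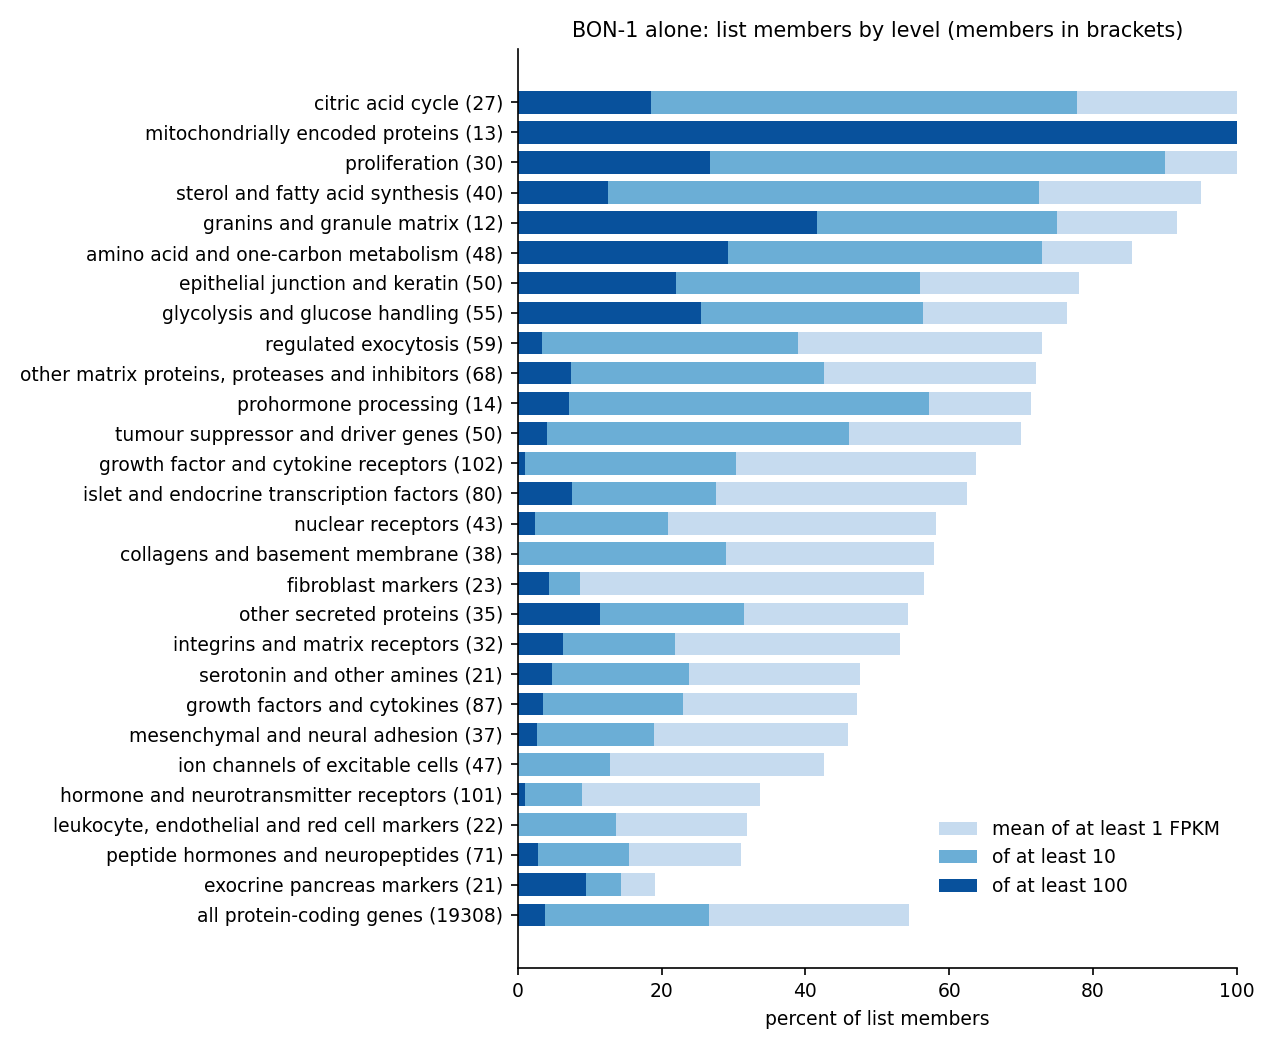
Percent of the members of each gene list with a mean FPKM over the 3 BON-1 alone libraries of at least 1, 10 and 100 (light to dark, each bar starting at 0), with the number of members in brackets and all protein-coding genes in the lowest bar. Citric acid cycle, mitochondrially encoded and proliferation genes reach 100% at 1 FPKM, while peptide hormones reach 31.0% and exocrine markers 19.0%, against 54.4% of protein-coding genes.

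Among collagen and laminin genes, those of basement membrane stood highest. Of 38 collagen and basement membrane genes 22 were detected (57.9%, against 54.4% of protein-coding genes), 11 reached 10 FPKM and none reached 100 FPKM. AGRN, agrin, a heparan sulphate proteoglycan of basement membranes, had 98.4, 95 and 97.4 FPKM. LAMA5, a laminin alpha chain, had 57.8, 55.9 and 56.5 FPKM. LAMB3, a laminin beta chain of epithelia, had 50.5, 51.4 and 52.3 FPKM, and LAMA3, an alpha chain that assembles with it, averaged 7.39 ± 0.461 FPKM. COL4A2 and COL4A1, whose products assemble together in type IV collagen, averaged 43.6 ± 0.972 and 8.75 ± 0.373 FPKM. Both are in basement membranes of most tissues, and COL4A2 was the higher in each library. In reads it had 4678, 5842 and 3526, against 2091, 2650 and 1701 for COL4A1. The recovered gene lengths were 6264 bases for COL4A2 and 14378 for COL4A1, so the gap in FPKM is wider than that in reads. The fibrillar collagens COL1A1, COL1A2 and COL3A1 were below COL4A2. COL1A1 nevertheless stood above COL4A1 (8.68, 8.42 and 9.16 FPKM) in each library. COL1A1 had 9.30, 9.05 and 9.31 FPKM, COL1A2 4.46, 3.46 and 4.31 FPKM and COL3A1 1.47, 1.60 and 1.69 FPKM. COL1A1 varied little, with a coefficient of variation of 1.60%, whereas that of COL1A2 was 13.1%, with library 2 the lowest. The levels of the other fibroblast markers are given above, and the part of other cells in the collagen reads was not tested.

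Of 68 other matrix genes 49 were detected (72.1%, against 54.4% of protein-coding genes), 29 reached 10 FPKM and 5 reached 100 FPKM. LGALS3BP, a galectin ligand, had 545, 541 and 542 FPKM, BGN, the small proteoglycan biglycan, 207, 208 and 206 FPKM and CTSD, cathepsin D, 179, 179 and 188 FPKM. SERPINH1, the collagen chaperone HSP47, and SDC4, syndecan 4, averaged 125 ± 3.23 and 117 ± 1.35 FPKM. The protease inhibitor TIMP1 averaged 89.4 ± 3.53 FPKM, fibronectin (FN1) 21.7 ± 0.589 FPKM and MMP2, a gelatinase, 14.5 ± 0.905 FPKM. POSTN, TNC and VCAN, proteins of tumour stroma, averaged 0.0617, 0.0395 and 0.0752 FPKM.
Among 32 integrins and matrix receptors 17 were detected (53.1%, against 54.4% of protein-coding genes). RPSA, a ribosomal protein that is also named as a laminin receptor, averaged 1162 ± 51.1 FPKM and CD151, a tetraspanin that binds laminin receptors, 242 ± 6.01 FPKM. ITGB1, ITGA3 and ITGA6, which form laminin-binding integrins, averaged 45.6 ± 2.10, 17.1 ± 0.662 and 7.85 ± 0.211 FPKM, and DAG1, dystroglycan, averaged 38.7 ± 1.29 FPKM. CD44, a hyaluronan receptor, averaged 0.601 ± 0.109 FPKM.

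The line was epithelial in its keratins and junctions. Of 50 such genes 39 were detected (78%, against 54.4% of protein-coding genes), 28 reached 10 FPKM and 11 reached 100 FPKM. KRT8 had 2259, 2271 and 2294 FPKM and KRT18, its pairing partner in simple epithelia, 1524, 1505 and 1510.5 FPKM. KRT19 and KRT7, keratins of ducts, averaged 841 ± 11.8 and 324 ± 5.67 FPKM, whereas the basal keratins KRT5 and KRT14 averaged 0.148 and 0.161 FPKM. VIL1, villin of the brush border, averaged 374 ± 4.39 FPKM, CLDN4 230.2 ± 1.45 FPKM and CDH1, E-cadherin, 79.8 ± 1.61 FPKM.
Of 37 mesenchymal and neural genes 17 were detected (45.9%, against 54.4% of protein-coding genes). TUBB3, a neuronal tubulin, had 416, 422 and 436 FPKM, and VIM, vimentin, had 75.8, 75.6 and 77.7 FPKM. INA, an intermediate filament of neurons, averaged 54.8 ± 2.35 FPKM. CDH2, N-cadherin, averaged 0.140 FPKM, ZEB1 0.428 FPKM and TWIST1 0.00914 FPKM, and NCAM1, also called CD56 and used as a neuroendocrine marker, was listed at 0. UCHL1, a neuronal deubiquitinase, had 1.65, 0.529 and 1.24 FPKM and varied by a ratio of 3.11.

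Genes of other cell types that reached a high level were few. S100A4, on the fibroblast list and also made by many tumour cells, had 2248, 2331 and 2263 FPKM. Of the 23 fibroblast genes 13 were detected (56.5%, against 54.4% of protein-coding genes), and S100A4 and MMP2 reached 10 FPKM. Between 1 and 10 FPKM lay, beside the collagens and PDGFRA, FBLN1 at 9.25 ± 0.601, TAGLN at 6.12 ± 0.622, ACTA2 at 5.99 ± 0.529, SPARC at 5.05 ± 0.468, IGFBP7 at 2.88 ± 0.223 and CXCL12 at 2.14 ± 0.0838 FPKM. These encode matrix proteins, smooth muscle cytoskeleton, a secreted binding protein and a chemokine, and their source was not tested. On the exocrine list 4 of 21 were detected (19%, against 54.4% of protein-coding genes). PRSS2, a trypsinogen, had 1488, 1592 and 1606 FPKM and ranked 41. PRSS1 had 226, 256 and 252 FPKM. Trypsinogen genes are near-identical, and the counting could move reads between them, so the split between PRSS2 and PRSS1 is uncertain. GP2, a membrane protein of zymogen granules, averaged 17.6 ± 0.0921 FPKM. Other digestive enzymes were near or at 0, with CPA1 at 0.935, CEL at 0.525 and CTRB1 at 0.0175 FPKM and with CPB1, PNLIP and AMY2A listed at 0. Of 22 leukocyte, endothelial and red cell genes 7 were detected (31.8%, against 54.4% of protein-coding genes). Among them were the globins HBA2 and HBA1, near-identical copies with 11.5 ± 0.920 and 6.39 ± 0.552 FPKM, while HBB was listed at 0.

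The spread between the 3 libraries was small for most genes. Among 7517 genes with a mean of at least 5 FPKM the median coefficient of variation was 3.46%, and 26 (0.346%) had a highest library at least 2 times the lowest. For a gene with no reads in a library no ratio was formed, so the counts by ratio here leave it out. Spread was nearer to counting noise in low genes than in high ones, and above it in both. The median coefficient of variation was 5.15% between 5 and 10 FPKM and 1.55% from 1000 FPKM up. The median counting error of a single library was 4.95% and 0.66% there. The median chi-square per degree of freedom was 1.11 and 7.26 in these ranges, where counting alone gives 0.693. Of 727 distinct list genes that were detected, 628 had a ratio below 1.2 and 6 a ratio of at least 2, which were CGB5, CGB8, CGA, CGB3, UCHL1 and SST. Among 6953 protein-coding genes with a mean of at least 5 FPKM, CGB5 and CGA were the 2 that passed that ratio. Next below it stood SMN1, which has a near-identical copy, with 11.7, 5.93 and 7.15 FPKM, then C19orf33 with 6.50, 5.50 and 9.92 FPKM and FAM24B with 6.18, 7.64 and 10.9 FPKM. Library 1 was the highest for SMN1 and library 3 for the other pair, so no library stood apart in all of them. The rest of the 15 protein-coding genes with the largest ratios were NRTN, RIDA, HIST1H3G, HIST1H2BG, AAMDC, RPL9, CFAP126, PET117, APOC1 and RBMX2, with ratios of 1.49 to 1.68.

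**Figure D5:**
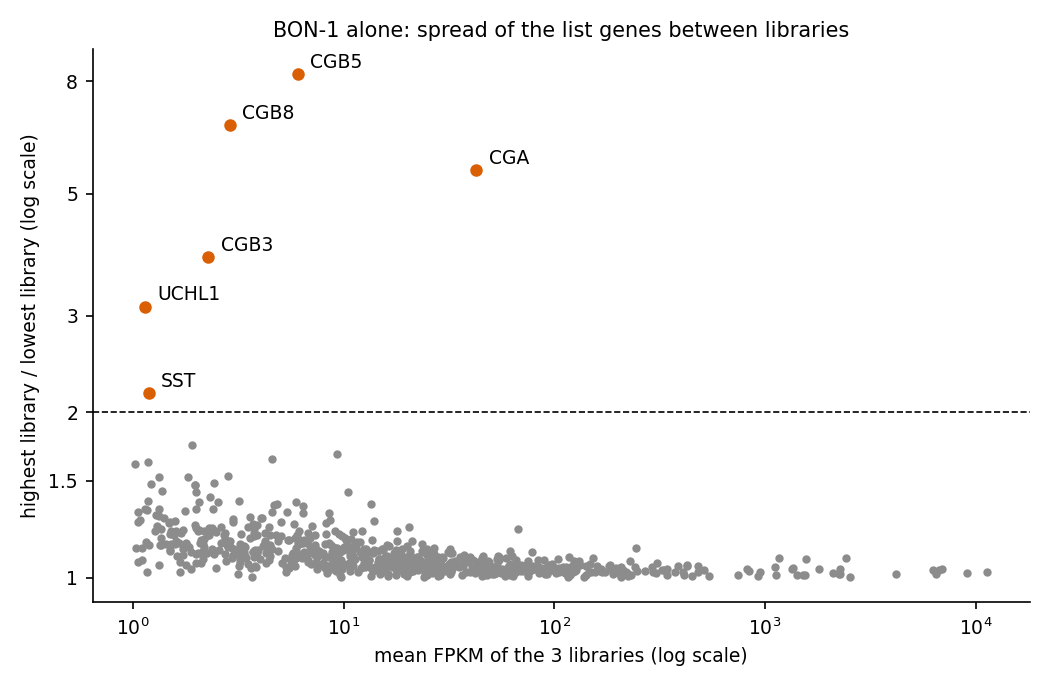
Mean FPKM over the 3 BON-1 alone libraries (x axis, log scale) and ratio of the highest to the lowest library (y axis, log scale) for the 727 detected list genes, each point a gene. The 6 genes in orange lie on or above the dashed line at a ratio of 2, and 628 genes lie below 1.2.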

How the data were processed

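The authors deposited 1 table of FPKM values for 54261 genes and all 12 libraries. HISAT2, featureCounts and the build hg38 are named in the submitters' processing notes. Not given in the sources used here: versions, roles, gene models and strand setting. The code in each sample's title linked it to a column, and 0 columns were left over.

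Only the 3 BON-1 alone columns were summarised, with no test and no comparison with the co-cultures. Read counts were recovered from the deposited FPKM by finding, for each gene, a length of up to 200000 bases at which its values in all libraries became whole reads within 1e-07. In BON-1 alone 99.9732% of 67208 nonzero values came out whole, and at least 99.9652% of each library's reads were recovered; the step was tested on simulated data. No count test was run, since no groups were compared.

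The 27 lists (1199 distinct genes) and the members described were chosen with earlier results of these data known. Named were the 30 highest genes, up to 8 of the highest members of each list and every member of at least 100 FPKM, members of at least 1 FPKM varying by a ratio of at least 2, the 15 most variable protein-coding genes of at least 5 FPKM, and the markers. Not every gene under the rule was named, and some list members are counted but not reported by name here. Further members, such as those of a receptor or enzyme family, were named for their role after their values were seen. Positions and biotypes came from RefSeq (GRCh38.p14), which matched 45971 symbols directly, 1812 by synonym and left 6478 unmatched. Python 3.11.15, pandas 2.3.3, numpy 2.4.6, scipy 1.17.1 and matplotlib 3.10.9 were used. Alternatives left out each library, rescaled the values, kept protein-coding genes alone, or changed the thresholds, the detection rule and the pseudocount.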

Additional observations from a re-analysis of the deposited data

How the results depend on the processing

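Of 238 recomputed summaries (counts of genes and members, shares and spread measures), 232 kept their value within the set margin. The 30 highest genes took 23.9% of the summed FPKM with protein-coding genes alone, against 22.4% with all genes. The number of genes varying by a ratio of at least 2 depended most on the setting. It was 26 with all genes of at least 5 FPKM, 12 to 19 when 1 library was left out (15 without library 1, 12 without library 3), 2 with protein-coding genes alone, 88 after rescaling to TPM and 306 with a minimum of 1 FPKM. The last pair, 88 and 306, let in lower genes, since the rescaling multiplied each FPKM by 1.94 to 1.96. A separate count over the 12278 genes with a mean of at least 1 FPKM gave 254 at that ratio. The 254 left out genes with no reads in a library, such as IGHM, since no ratio was formed for them. Whether this accounts for the gap between 254 and 306 was not tested, so 306 may differ from 26 by more than the minimum. Of 272 named genes with a mean of at least 1 FPKM, 5 had a mean that moved by over 1.5 times when 1 library was left out: CGA, CGB5, CGB8 and CGB3 without library 2, and IGHM without library 1. Their means without it stand where each gene is described. The TPM rescaling moved 284 of 295 gene means, as its construction requires. No paired analysis was possible because no groups are compared.

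Depth limits genes near 0: with 51559288 reads in all, 3 reads in a gene of 644 bases give 0.0904 FPKM. These limits cover counting error only, since reads without molecular identifiers are not independent molecules. With 3 libraries of 1 group, SDs are themselves imprecise, and single libraries far from the others could not be judged.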

Other observations

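A run of genes on the short arm of chromosome 9 was at or near 0 in the 3 BON-1 alone libraries, and was looked at after CDKN2A and CDKN2B were seen to be low. Between FOCAD (20655625 to 20995950 on GRCh38.p14) and ELAVL2 (23690104 to 23850601) lie 22 protein-coding genes of the table. Of these 19 were listed at 0 in all 3 libraries, 16 of them interferon genes, which many cell types do not express unstimulated. Of all 19308 protein-coding genes 3280 were listed at 0. MTAP, a methionine salvage enzyme that most tissues express, had 0.0121, 0.0186 and 0.0315 FPKM, and KLHL9 and HACD4 were listed at 0. The whole run held 10, 4 and 8 reads, and the highest mean was 0.0658 FPKM. Neighbours outside the run were detected, with FOCAD at 2.40 ± 0.175, MLLT3 at 2.97 ± 0.193, CAAP1 at 4.70 ± 0.409 and PLAA at 6.75 ± 0.257 FPKM. ELAVL2 averaged 0.666 ± 0.203 FPKM. FPKM values give no copy number, and the cause was not tested.

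IGHM, an immunoglobulin heavy chain gene of B cells chosen after its values were seen, had 4.58, 0 and 0.0521 FPKM from 114, 0 and 1 reads, so nearly all of its signal came from library 1. Its mean was 1.54 FPKM over the 3 libraries and 0.0260 FPKM without library 1. MS4A1, a B cell marker, had 0.266, 0 and 0 FPKM from 8, 0 and 0 reads, and the leukocyte marker PTPRC had 11, 1 and 0 reads, so library 1 was the highest for both as well. The part of other cells was not tested.

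Among genes listed as long noncoding RNAs, also picked by level afterwards, LRRC75A-AS1, GAS5 and DANCR averaged 498 ± 7.04, 188 ± 2.73 and 148 ± 4.24 FPKM. Strand use in the counting is not given in the sources used here, so LRRC75A-AS1 and genes on the other strand cannot be told apart.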
